A study of Mus musculus with 10 samples.

Results

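The transcripts described here are those of *Foxp3*, of the Ikaros family of zinc finger factors, and of IL-2 with the alpha chain of its receptor. They were chosen by name, as 7 genes (*Foxp3*, *Ikzf1*, *Ikzf2*, *Ikzf3*, *Ikzf4*, *Il2* and *Il2ra*), and 5 of them were measured among the 770 gene probes, while *Ikzf3* and *Ikzf4* were not analysed here. RNA of 10 whole YUMMER1.7 tumors, 5 from WT mice and 5 from Siah2-/- mice, was hybridized to the mouse NanoString PanCancer Immune Profiling panel, in which barcoded probes are counted directly and no amplification is used. The comparison asked how loss of Siah2, a RING finger ubiquitin ligase, in the host changes immune transcripts of the tumor. YUMMER1.7 is a mouse melanoma line, and both groups were injected under the skin with the same cells. The mice were male, some weeks old and of a C57BL/6 background, as the study describes them. In the Siah2-/- group all cells of the host lacked the gene, while the injected melanoma cells did not, so that the groups differ in the host cells of every tissue. Tumors were collected 11 days after injection per the sample labels, and 10 days per the series' own text, which also names Yumm1.5 cells and Rnf5-/- mice where the sample labels and the methods name YUMMER1.7 and Siah2. *Siah2* itself was not analysed here, so the deletion was not checked against its own transcript. The WT tumors carry the numbers 2 to 6 (WT2 to WT6 below), and the Siah2-/- tumors 1, 2, 3, 5 and 6 (KO1 to KO6).

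*Foxp3* encodes the factor that defines regulatory T cells (Tregs) and holds their suppressive program. Ikaros (*Ikzf1*) is made throughout the lymphoid lineages, and Helios (*Ikzf2*) is found in many Tregs and in part of other T cells and NK cells. IL-2 is secreted mainly by activated T cells that are not Tregs, and its high-affinity receptor joins the alpha chain (*Il2ra*, CD25) to the beta and gamma chains, which carry the signal through JAK1 and JAK3 to STAT5. Tregs carry much CD25 and make almost no IL-2 themselves, and activated effector T cells and NK cells take up CD25 for a time.

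The genes lie on 5 chromosomes in GRCm38.p6. RefSeq places *Foxp3* at chrX:7579676-7595243, *Ikzf1* at chr11:11684962-11772930, *Ikzf2* at chr1:69531207-69687351, *Il2* at chr3:37120713-37125954 and *Il2ra* at chr2:11642792-11693194. Transcription of *Il2*, *Il2ra* and *Foxp3* is known to be driven downstream of the T cell receptor by NFAT, with AP-1 (*Fos* and *Jun*) at some sites, and probes for these factors are described below. The 250 bases before the RefSeq start of the 3 genes are shown for this reason, each 5′ to 3′ on the strand of the gene, with capitals for the letters GGAAA, the core bound by NFAT, or their reverse complement TTTCC.
Foxp3, chrX:7579426-7579675, plus strand: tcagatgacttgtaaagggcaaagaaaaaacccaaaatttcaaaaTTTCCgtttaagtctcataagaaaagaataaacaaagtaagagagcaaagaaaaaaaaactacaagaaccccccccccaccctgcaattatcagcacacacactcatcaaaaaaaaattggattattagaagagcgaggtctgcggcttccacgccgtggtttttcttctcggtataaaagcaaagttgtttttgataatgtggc
Il2, chr3:37125955-37126204, minus strand: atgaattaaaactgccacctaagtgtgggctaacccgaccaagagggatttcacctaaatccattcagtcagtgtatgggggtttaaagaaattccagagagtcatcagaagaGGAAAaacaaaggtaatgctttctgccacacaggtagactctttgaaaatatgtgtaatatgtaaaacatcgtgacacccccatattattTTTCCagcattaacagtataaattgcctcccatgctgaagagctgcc
Il2ra, chr2:11642542-11642791, plus strand: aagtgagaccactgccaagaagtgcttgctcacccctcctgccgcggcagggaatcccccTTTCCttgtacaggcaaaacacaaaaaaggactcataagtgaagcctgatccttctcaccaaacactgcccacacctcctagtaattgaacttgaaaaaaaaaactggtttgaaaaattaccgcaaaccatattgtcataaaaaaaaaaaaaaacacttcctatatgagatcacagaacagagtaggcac
The 5 letters occurred once before *Foxp3*, once before *Il2ra* and 2 times before *Il2*, counted on both strands. Of 32841 mouse promoters of this length 55.6% hold them at least once. The AP-1 letters TGANTCA, searched on both strands, were in 0 of the 3 windows and in 6.75% of all promoters. These matches describe letters only, and no binding was measured.

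The deposited values are counts scaled to 20 reference genes (normalized counts). Sums over the 770 probes before that scaling were between 382860 and 581635 per tumor, the scaling factors were between 0.918 and 1.60, and the highest negative control probe stood between 2.37 and 10.7 counts. The factor of each tumor was estimated from the step between its deposited values. Values before scaling, here and below, are the deposited values divided by that estimate. All values were converted to log2 after adding 1, all 770 probes were compared between the groups with limma, and p were adjusted over the 770 (adjusted p). A gene was called at an adjusted p under 0.05. This gave 316 genes, 41.0% of those tested, with 31.3% called higher and 9.74% called lower in Siah2-/- tumors, and all probes together had a median log2 fold change of 0.24. Of the 20 reference genes themselves 2 were called higher and 3 lower, with a median log2 fold change of 0.0089. Nothing in the labels says that tumors are more than separate samples of a group, so p-values measure the spread between these tumors.

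*Foxp3* was the only one of the 5 measured genes that was called, and it was lower in Siah2-/- tumors. The 5 WT tumors had 69.3, 53.0, 67.3, 63.1 and 30.8 normalized counts, in the order of their numbers. The Siah2-/- tumors had 25.3, 26.5, 21.5, 46.9 and 27.4 normalized counts. The tumors KO1, KO2, KO3 and KO6 lay below every WT tumor, whereas KO5 lay above WT6, the lowest WT tumor, and below the other 4. Siah2-/- tumors averaged 29.5 ± 9.97 and WT tumors 56.7 ± 15.8 (SD, n = 5 each). The log2 fold change was −0.92 (standard error 0.26, 95% confidence interval −1.49 to −0.34, adjusted p = 0.018 from limma), a ratio of 0.530. The two-sided exact permutation test over the 252 divisions of the tumors, whose smallest possible p is 0.0079, gave p = 0.016. *Foxp3* was 29th from the bottom of the 770 log2 fold changes. In bulk tumor RNA, fewer cells of a type and less RNA per cell cannot be told apart, here and for every gene below. The probe was above the highest negative control in all 10 tumors. Before scaling, by the estimated factors, its counts ran from 16.6 to 31.7 in Siah2-/- tumors and from 31.9 to 73.4 in WT tumors, without overlap but with a narrow gap. The scaling factors were 1.03 to 1.60 in Siah2-/- tumors and 0.918 to 1.32 in WT tumors. Counts before scaling are thus shifted toward lower values in Siah2-/- tumors for every probe. The share of all probes without overlap before scaling was not counted. With the numbers shared by both groups as a replicate block, which leaves 8 tumors, the log2 fold change was −0.80 with an adjusted p of 0.065 from limma.

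*Ikzf2*, which encodes Helios, was the other gene with a lower mean in Siah2-/- tumors, and it was not called. Normalized counts were 181, 150, 180, 155 and 153 in WT2 to WT6. They were 115, 139, 144, 168 and 124 in KO1, KO2, KO3, KO5 and KO6. Again 4 of the Siah2-/- tumors lay below every WT tumor and KO5 did not. The means were 138 ± 20.3 and 164 ± 15.3 (SD, n = 5 each), and the log2 fold change came to −0.26 (standard error 0.12, 95% confidence interval −0.52 to 0.0051, limma adjusted p = 0.10). The exact permutation test gave p = 0.063. This call depended on scaling and on 1 tumor. Scaling the tumors to a common median of the endogenous probes (median scaling), which moved the median log2 fold change of all probes from 0.24 to −0.0074, gave −0.52 for *Ikzf2* with an adjusted p of 0.0044. Without KO5 the value was −0.33 with an adjusted p of 0.036.

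*Ikzf1*, which encodes Ikaros, had the opposite sign. Normalized counts were 101, 94.9, 101, 149 and 99.2 in WT2 to WT6. They were 116, 129, 136, 206 and 118 in the Siah2-/- tumors, in the order KO1, KO2, KO3, KO5 and KO6. WT5 was the exception among WT tumors, as it lay above 4 of the Siah2-/- tumors, and the other 4 WT tumors lay below all of them. Siah2-/- tumors averaged 141 ± 37.4 and WT tumors 109 ± 22.4 (SD, n = 5 each). The log2 fold change of 0.36 (standard error 0.18, 95% confidence interval −0.049 to 0.76) was not called, with an adjusted p of 0.14 from limma. With the replicate block on 8 tumors it was 0.40 and called, with an adjusted p of 0.045. Without KO5 it was 0.21 (adjusted p = 0.27), and after quantile normalization 0.039 (adjusted p = 0.85).

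*Il2*, the gene of the ligand, was close to the detection limit. Normalized counts were 3.23, 6.21, 7.69, 1.32 and 2.79 in WT2 to WT6. They were 3.11, 10.5, 6.30, 5.49 and 1.03 in KO1, KO2, KO3, KO5 and KO6. Before scaling, only WT3, WT4, KO2 and KO3 were above the highest negative control of their own tumor, and WT5 and KO6 were at the floor of the table. The means of 5.29 ± 3.58 and 4.25 ± 2.62 (SD, n = 5 each) differed by less than their spread, with a log2 fold change of 0.19 (95% confidence interval −0.90 to 1.29, adjusted p = 0.77 from limma). Differences inside this interval were not detectable at these counts, and the sign turned without WT5 (−0.062) and without KO2 (−0.081).

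*Il2ra*, the gene of the alpha chain, did not fall with *Foxp3*. Normalized counts were 150, 285, 351, 188 and 198 in WT2 to WT6. They were 299, 319, 395, 384 and 253 in KO1, KO2, KO3, KO5 and KO6. WT3 and WT4 overlapped with the Siah2-/- tumors, and KO3 and KO5 lay above every WT tumor. Siah2-/- tumors averaged 330 ± 59.4 and WT tumors 234 ± 81.7 (SD, n = 5 each). The log2 fold change was 0.54 (standard error 0.23, 95% confidence interval 0.024 to 1.06) and was not called, with an adjusted p of 0.087 from limma and an exact permutation p of 0.071. Without WT4, the highest WT tumor, it was 0.70 and called (adjusted p = 0.024). On the 8 tumors with shared numbers it was 0.73 and called with the replicate block (adjusted p = 0.036) and without it (adjusted p = 0.040).

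The other 2 chains of the receptor were higher in every Siah2-/- tumor than in every WT tumor. *Il2rb*, the beta chain that IL-15 also uses, had 587, 791, 669, 1060 and 813 normalized counts in WT2 to WT6. It had 1249, 1083, 1293, 1431 and 1072 in the Siah2-/- tumors. The log2 fold change of *Il2rb* was 0.66 (standard error 0.16, adjusted p = 0.0077 from limma, exact permutation p = 0.0079). *Il2rg*, the gamma chain common to several cytokine receptors, had 180, 190, 180, 244 and 193 normalized counts in WT2 to WT6, and 274, 271, 393, 469 and 269 in the Siah2-/- tumors. Its log2 fold change was 0.73 (standard error 0.18, adjusted p = 0.0079 from limma). The groups did not overlap for 31.6% of all probes, and for 0 of the 5 measured genes of the set itself. Scaling to the positive control probes ended both calls, with 0.50 for *Il2rb* (adjusted p = 0.40) and 0.57 for *Il2rg* (adjusted p = 0.31). Under that scaling the count of called genes fell from 316 to 95, with 60 higher and 35 lower, and *Foxp3* was still called. Quantile normalization ended the call of *Il2rb*, with 0.24 (adjusted p = 0.11).

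**Figure D1:**
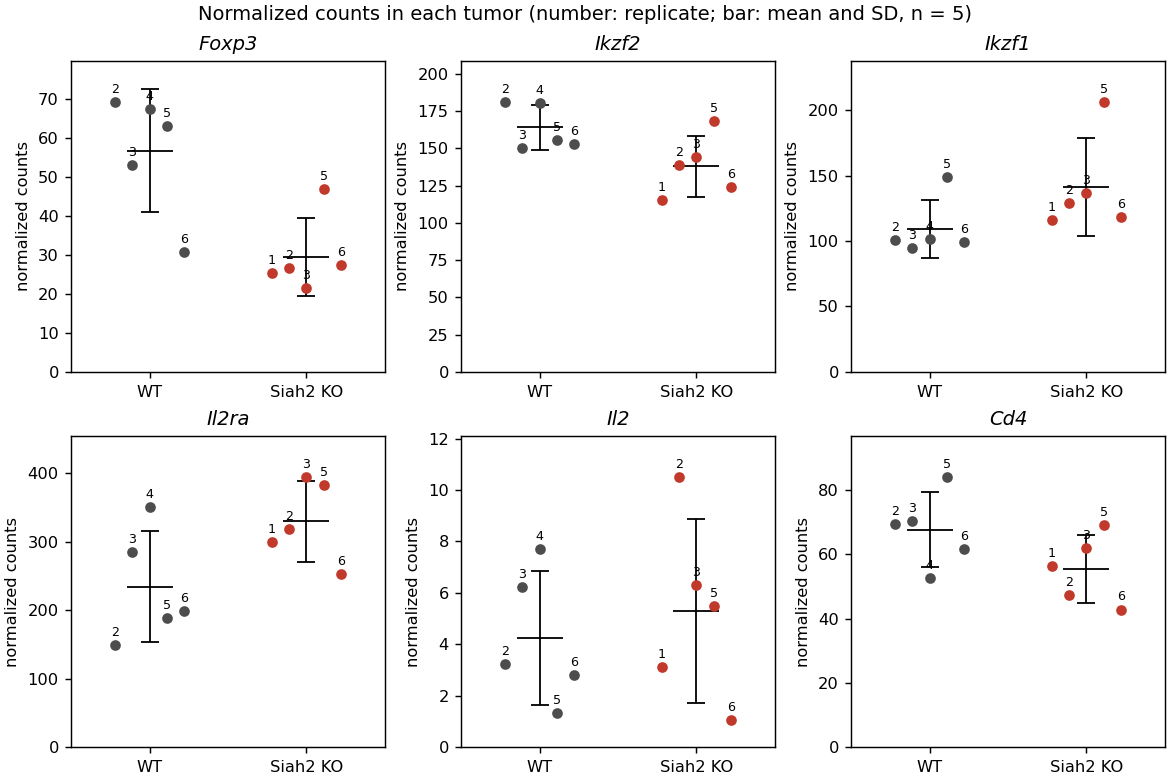
Normalized counts (vertical axis, from 0) of *Foxp3*, *Ikzf2*, *Ikzf1*, *Il2ra*, *Il2* and *Cd4* in 5 WT (gray) and 5 Siah2 KO (red) tumors, where each point is 1 tumor with its replicate number and the lines are the mean and SD. *Foxp3* and *Ikzf2* are below every WT tumor in 4 Siah2 KO tumors, *Il2ra* is above every WT tumor in 2, and *Il2* stays at or under 10.5 in all 10.

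Markers of leukocytes and T cells moved with the genotype in the same tumors. Over all probes 31.3% were called higher and 9.74% lower. Of 8 leukocyte genes, *Ptprc* (CD45) among them, 7 were called higher and 0 lower, and their summed normalized counts ran from 6834 to 10144 in Siah2-/- tumors and from 4478 to 5511 in WT tumors. Of 11 T cell genes 6 were called higher and 0 lower, with sums of 840 to 1608 and 658 to 847. Among the T cell genes not called, *Cd5* was at −0.019 (adjusted p = 0.96 from limma) and *Cd6* at −0.23 (adjusted p = 0.24). Both genes of CD8 T cells were called higher, with sums of 119 to 200 and 42.0 to 87.8, and 4 of 5 NK cell genes were called higher. Neither of the 2 CD4 T cell genes was called. *Cd4*, which macrophages and dendritic cells can also carry, had 69.3, 70.5, 52.7, 84.2 and 61.6 normalized counts in WT2 to WT6, and 56.4, 47.3, 61.9, 69.0 and 42.8 in the Siah2-/- tumors. Its log2 fold change was −0.29 (adjusted p = 0.19 from limma) with overlapping groups. Median scaling gave −0.55 for *Cd4* (adjusted p = 0.0054) and quantile normalization −0.59 (adjusted p = 0.0052). The part of these markers in the values of *Foxp3*, the Ikaros factors and the receptor chains was not tested beyond the relative scales that follow.

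Each gene was therefore also set against the T cell genes and the leukocyte genes of its own tumor, by subtracting the median log2 value of the list. The median of the T cell list was higher by 0.74 in Siah2-/- tumors (exact permutation p = 0.024), and that of the leukocyte list by 0.72 (exact permutation p = 0.0079). Subtraction shifts all probes of a tumor alike, so that the order of the 770 fold changes does not move. The median over all probes became −0.50 relative to T cell genes and −0.48 relative to leukocyte genes.

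Relative to T cell genes, both *Foxp3* and *Ikzf2* were lower in every Siah2-/- tumor than in every WT tumor. The relative log2 value of *Foxp3* was 0.38, −0.15, 0.32, 0.092 and −0.54 in WT2 to WT6. It was −2.18, −1.71, −1.80, −1.45 and −1.01 in KO1, KO2, KO3, KO5 and KO6, without overlap. The difference was −1.65 (standard error 0.27, 95% confidence interval −2.21 to −1.09, adjusted p = 0.00032 from limma). For *Ikzf2* the relative log2 value was 1.76, 1.34, 1.73, 1.38 and 1.74 in WT2 to WT6. In the Siah2-/- tumors it was −0.041, 0.63, 0.89, 0.37 and 1.13, again without overlap, and the difference was −0.99 (standard error 0.25, adjusted p = 0.0080 from limma). On this scale 35.3% of all probes were called and 30.5% were called lower, so a lower call by itself was common. Of the 20 reference genes 12 were called on it. So were 2 of the 11 T cell genes themselves, both lower: *Cd6* with −0.96 (adjusted p = 0.0038 from limma) and *Cd5* with −0.75 (adjusted p = 0.031). The value of *Ikzf2* was thus close to that of *Cd6*. The shift of the list, 0.74, is the larger part of the −0.99 of *Ikzf2*, which was −0.26 on the scale of the reference genes. The share of all probes without overlap was not counted on this scale. On the 8 tumors with shared numbers and without a block, *Ikzf2* was at −0.80 with an adjusted p of 0.050.

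The other genes were not called relative to T cell genes. *Ikzf1* had a difference of −0.38 (adjusted p = 0.23 from limma), *Il2* of −0.54 (adjusted p = 0.30) and *Il2ra* of −0.20 (95% confidence interval −0.79 to 0.40, adjusted p = 0.61). *Il2rb*, called higher on the scale of the reference genes, was at −0.071 (95% confidence interval −0.60 to 0.46) and *Il2rg* at −0.0051 (95% confidence interval −0.54 to 0.53). *Cd4* was called lower, with −1.02 (adjusted p = 0.0042 from limma), and *Cd40lg* was not called, with −0.33 (adjusted p = 0.53 from limma). *Il2ra* turned to 0.096 on the 8 tumors with shared numbers, with the replicate block and without it.

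Relative to leukocyte genes the same 2 of the 5 genes were called. *Foxp3* had −1.63 (standard error 0.28, adjusted p = 0.00094 from limma) and *Ikzf2* −0.97 (standard error 0.16, adjusted p = 0.00081), both without overlap of the groups. On this scale 54.0% of all probes were called and 47.3% were called lower, and all 20 reference genes were called. Of the 8 leukocyte genes themselves 3 were called, *Cd37* lower (−0.70) and *Cd53* (0.38) and *Itgb2* (0.44) higher. The shift of the list was 0.72, and the share of all probes without overlap was not counted here either. *Ikzf1* had −0.36 (95% confidence interval −0.68 to −0.035, adjusted p = 0.059). It was called without WT6 (−0.45, adjusted p = 0.017) and without KO5 (−0.41, adjusted p = 0.045). *Il2* had −0.52 (adjusted p = 0.41) and *Il2ra* −0.18 (95% confidence interval −0.78 to 0.43, adjusted p = 0.61), which turned to 0.064 without WT4. *Il2rb* was at −0.052 (adjusted p = 0.78) and *Il2rg* at 0.013 (adjusted p = 0.94).

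**Figure D2:**
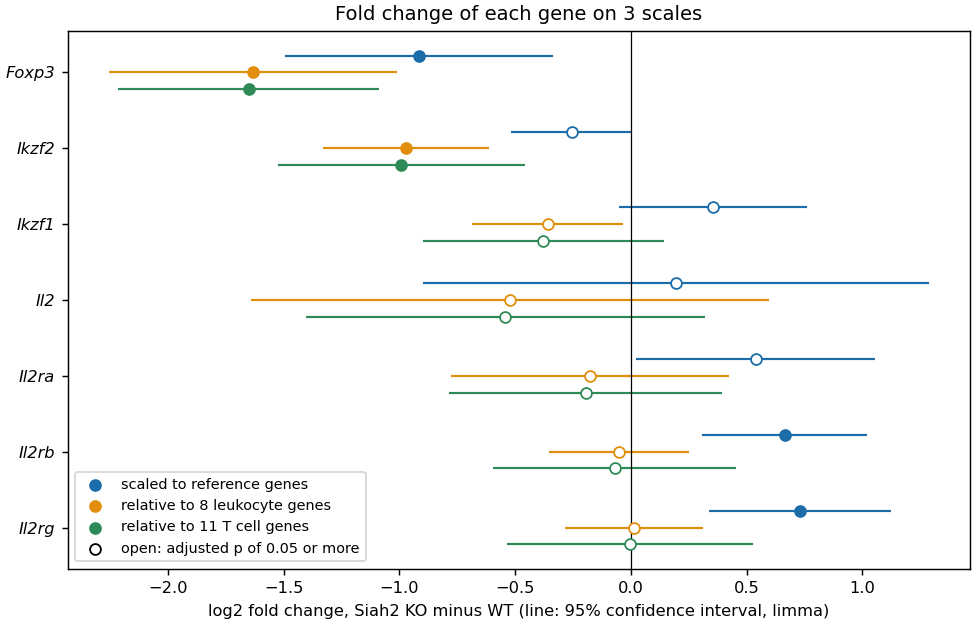
Log2 fold change of 7 genes, Siah2 KO minus WT, with the 95% confidence interval of limma (horizontal lines), on 3 scales shown by color: scaled to the reference genes, relative to 8 leukocyte genes and relative to 11 T cell genes, with filled points for an adjusted p under 0.05 and open points for the rest. *Foxp3* is filled on the 3 scales, *Ikzf2* on the 2 relative scales, and *Il2rb* and *Il2rg* on the scale of the reference genes and near 0 on the other 2.

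Differences between 2 genes within a tumor do not depend on how the tumor was scaled, apart from the added 1. For the 6 pairs among the 4 genes above the detection limit, these differences were compared by exact permutation tests with p adjusted over the 6. This comparison was chosen after the data were seen. *Foxp3* minus *Il2ra* was −1.10, −2.41, −2.36, −1.56 and −2.65 in WT2 to WT6. It was −3.51, −3.54, −4.14, −3.01 and −3.16 in KO1, KO2, KO3, KO5 and KO6, so all 5 lay below every WT tumor, and the group means differed by −1.46 (exact permutation p = 0.0079, adjusted 0.016). *Foxp3* minus *Ikzf1* differed by −1.27 (exact permutation p = 0.0079, adjusted 0.016), and *Ikzf2* minus *Il2ra* by −0.80 with the same p, both with all 5 Siah2-/- tumors below every WT tumor. KO5, which lay inside the WT range for *Foxp3* and for *Ikzf2* as single genes, was below every WT tumor in each of these 3 pairs. The share of all pairs of probes without overlap was not counted, here and for the pairs with *Cd4* below. As single probes 31.6% did not overlap, so separation of a pair is not read as particular to these genes.

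The 2 factors of Tregs also differed from each other. *Foxp3* minus *Ikzf2* differed by −0.66, with an exact permutation p of 0.032 (adjusted 0.038), and 2 Siah2-/- tumors lay below every WT tumor. Without any 1 of WT2, WT3, WT4, WT5, KO2 or KO3 the exact permutation p of this pair was between 0.056 and 0.063, with differences of −0.64 to −0.54. *Ikzf1* minus *Ikzf2* was higher in Siah2-/- tumors by 0.61 (exact permutation p = 0.032, adjusted 0.038). *Ikzf1* minus *Il2ra* differed by −0.18 (exact permutation p = 0.53).

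*Cd4*, the coreceptor of the lineage that holds most Tregs, was used in the same way, with p adjusted over 4 comparisons chosen after the data were seen. *Foxp3* minus *Cd4* was 0, −0.41, 0.35, −0.41 and −0.98 in WT2 to WT6, and −1.12, −0.81, −1.49, −0.55 and −0.63 in the Siah2-/- tumors. The difference of −0.63 did not pass, with an exact permutation p of 0.063 (adjusted 0.085), and 2 Siah2-/- tumors lay below every WT tumor. With 1 tumor left out the difference ran from −0.80 to −0.47. The exact permutation p was 0.016 without WT6 (−0.80) and 0.048 without KO5 (−0.72), and between 0.063 and 0.13 without any 1 of the other 8. *Ikzf2* minus *Cd4* differed by 0.030 (exact permutation p = 0.87). *Ikzf1* minus *Cd4* was higher in all 5 Siah2-/- tumors than in every WT tumor, by 0.64 (exact permutation p = 0.0079, adjusted 0.032). *Il2ra* minus *Cd4* ran from 2.39 to 2.73 in Siah2-/- tumors and from 1.10 to 2.71 in WT tumors, a difference of 0.83 with an exact permutation p of 0.040 (adjusted 0.079). Without any 1 of WT2, WT5 or the 5 Siah2-/- tumors its exact permutation p was between 0.056 and 0.071, with differences of 0.67 to 0.87.

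**Figure D3:**
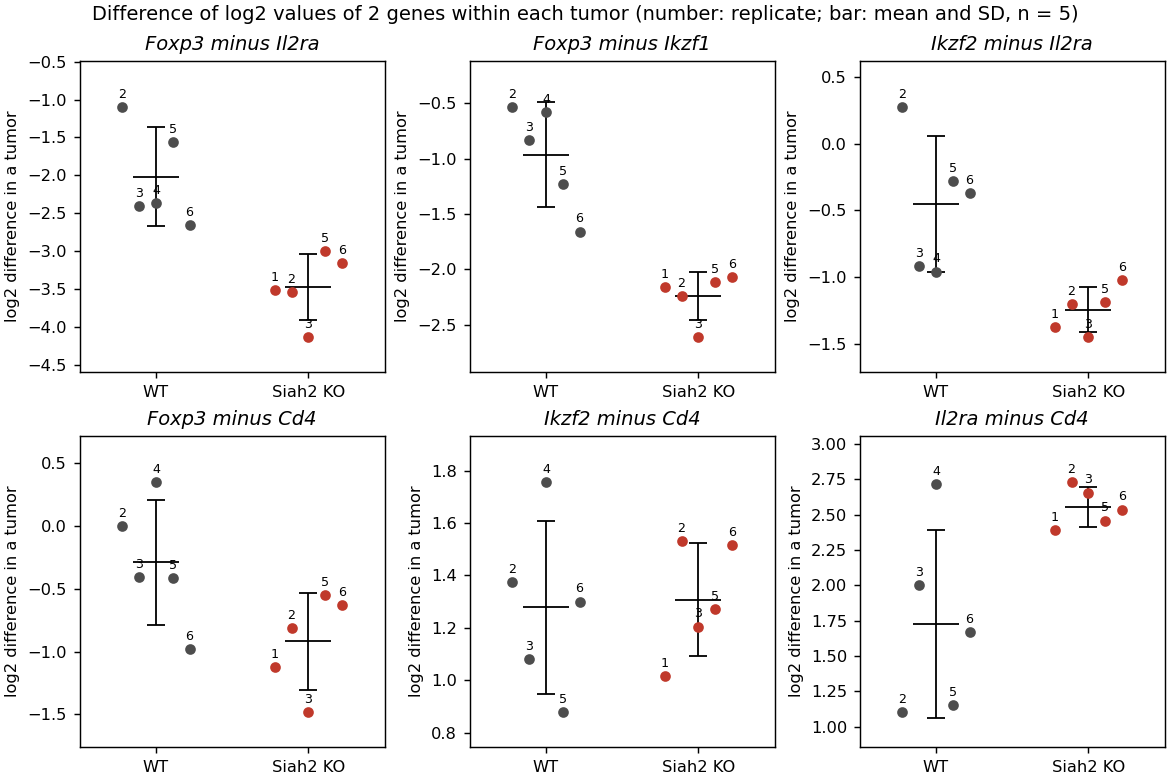
Difference of the log2 values of 2 genes within each tumor (vertical axis, log2 units) for 6 pairs in 5 WT (gray) and 5 Siah2 KO (red) tumors, where each point is 1 tumor with its replicate number and the lines are the mean and SD. In the upper row all 5 Siah2 KO tumors lie below every WT tumor, while in the lower row, which shows 3 of the 4 comparisons with *Cd4*, the groups overlap. *Ikzf1* minus *Cd4*, where all 5 Siah2 KO tumors were above every WT tumor, is not drawn.

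The partners of the receptor were described by a list of 9 genes, the IL-2 receptor pathway. In it 5 genes were called higher and 0 lower, beside 31.3% higher and 9.74% lower over all probes. The median log2 fold change was 0.66 beside 0.24 for all probes. After scaling to the positive control probes 0 were called, and quantile normalization gave 3 higher and 1 lower. Beside *Il2rb* and *Il2rg*, the genes called higher were *Il15ra*, the receptor chain that presents IL-15 (0.86, adjusted p = 0.0016), and *Socs1* (0.98, adjusted p = 0.0083) and *Socs3* (0.69, adjusted p = 0.0040), which are induced by cytokine signals and restrain them. *Jak1*, the kinase at the beta chain, was at 0.047 (adjusted p = 0.62) and *Jak3*, the kinase at the gamma chain, at 0.039 (adjusted p = 0.85). *Stat5b*, which carries the signal to the nucleus, was at 0.24 (adjusted p = 0.0997). Relative to T cell genes the median of the list was −0.071, beside −0.50 for all probes.

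Of 15 genes of factors known to act on *Foxp3* or *Il2*, 4 were called higher and 1 lower, with a median of 0.19. These counts were near the shares of all probes (31.3% higher and 9.74% lower), as was the median (0.24). *Fos* was called higher with 1.78 (adjusted p = 0.00057), from 110 ± 32.5 normalized counts in WT to 378 ± 117 in Siah2-/- tumors (SD, n = 5 each), and it stayed called in every alternative and without each tumor. *Runx3*, a factor of CD8 T cells and NK cells, was called with 0.80 (adjusted p = 0.0023). *Ets1* with 0.28 (adjusted p = 0.023) and *Jun* with 0.24 (adjusted p = 0.041) had fold changes near the median of all probes, and median scaling left 0.016 and −0.022, while quantile normalization gave −0.089 and −0.18. The call of *Ets1* was lost without WT2, WT4, KO1 or KO3 (0.25 to 0.27), and that of *Jun* without any 1 tumor other than WT5 or KO5 (0.21 to 0.26). *Smad3*, which relays TGF-β signals and is known to take part in the induction of *Foxp3*, was lower in every Siah2-/- tumor, at −0.38 (standard error 0.08, limma adjusted p = 0.0043). With the replicate block on 8 tumors it was at −0.36 with an adjusted p of 0.060, and the count of higher genes in the list was 2 in that fit, on the same 8 tumors without a block, after median scaling or quantile normalization, and without WT2, WT4, KO1 or KO3, and 1 after scaling to the positive control probes. The count of lower genes was 2 after median scaling, 3 after quantile normalization, and 0 with the replicate block and after scaling to the positive control probes, where *Smad3* was at −0.54 (adjusted p = 0.33). The NFAT genes were not called, with log2 fold changes of 0.067 for *Nfatc1*, 0.19 for *Nfatc2* and 0.032 for *Nfatc3*. *Runx1*, which forms complexes with Foxp3, was at 0.032 (adjusted p = 0.80), and the NF-κB genes *Rela* and *Rel* at 0.079 (adjusted p = 0.60) and 0.16 (adjusted p = 0.34).

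Of 16 genes that Tregs are known to carry, 6 were called higher and 3 lower, with a median of 0.19, beside 31.3% called higher, 9.74% called lower and a median of 0.24 over all probes. Those called higher were *Tnfrsf9* (1.07, adjusted p = 0.034), *Lag3* (1.06, adjusted p = 0.0070), *Tigit* (0.97, adjusted p = 0.0028), *Entpd1* (0.95, adjusted p = 0.0019), *Ebi3* (0.86, adjusted p = 0.0011) and *Icos* (0.77, adjusted p = 0.025). *Tnfrsf9*, *Lag3*, *Tigit* and *Icos* are also known on activated effector T cells or NK cells, and *Entpd1* on myeloid cells. Scaling to the positive control probes left 0 of the 6 called. *Ccr4*, a receptor through which CCL17 and CCL22 attract Tregs, was lower at −1.60 (adjusted p = 0.019), with 2.77 ± 2.73 normalized counts in Siah2-/- tumors against 9.81 ± 5.44 in WT (SD, n = 5 each). The highest negative control stood at 2.57 to 10.7 counts in Siah2-/- tumors and at 2.37 to 6.76 in WT tumors. The mean of *Ccr4* lay in that range in Siah2-/- tumors and above it in WT tumors. *Itgae* (CD103), an integrin of tissue-resident T cells and Tregs, was at −1.15 (adjusted p = 0.023), and *Nrp1*, found on many Tregs and also on endothelium and dendritic cells, at −0.46 (adjusted p = 0.026). *Ctla4*, the inhibitory receptor abundant in Tregs, was at −0.082 (adjusted p = 0.79), *Tgfb1*, the gene of a cytokine that Tregs and many other cells secrete, at 0.10 (adjusted p = 0.44), and *Nt5e* (CD73), an enzyme that makes adenosine, at 0.33 (adjusted p = 0.37).

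Single tumors and other settings decided some of these calls. *Icos* was no longer called without WT2, WT5, WT6, KO1, KO3 or KO5 (0.64 to 0.76), and *Tnfrsf9* without WT3, WT6, KO1, KO3 or KO5 (0.86 to 1.05). The call of *Icos* was also lost after median scaling (0.50, adjusted p = 0.087), after quantile normalization (0.47, adjusted p = 0.11) and on the 8 tumors without a block (0.78, adjusted p = 0.062). That of *Tnfrsf9* was also lost after median scaling (0.82, adjusted p = 0.075), with a floor of 20 (0.51, adjusted p = 0.083) and on the 8 tumors with the replicate block (1.19, adjusted p = 0.058) and without it (adjusted p = 0.059). The gene tests with equal and with unequal variances gave *Tnfrsf9* adjusted p of 0.060 and 0.063. *Itgae* was no longer called without WT2 (−1.05) or KO1 (−0.97), and *Nrp1* without WT3, KO2 or KO3 (−0.39, −0.39 and −0.40). The test with unequal variances gave *Itgae* an adjusted p of 0.069, and scaling to the positive control probes gave *Nrp1* −0.62 with an adjusted p of 0.27. With the replicate block *Itgae* was at −0.95 (adjusted p = 0.066) and *Nrp1* at −0.47 (adjusted p = 0.12), so that *Ccr4* was the 1 gene of the list still called lower.

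**Figure D4:**
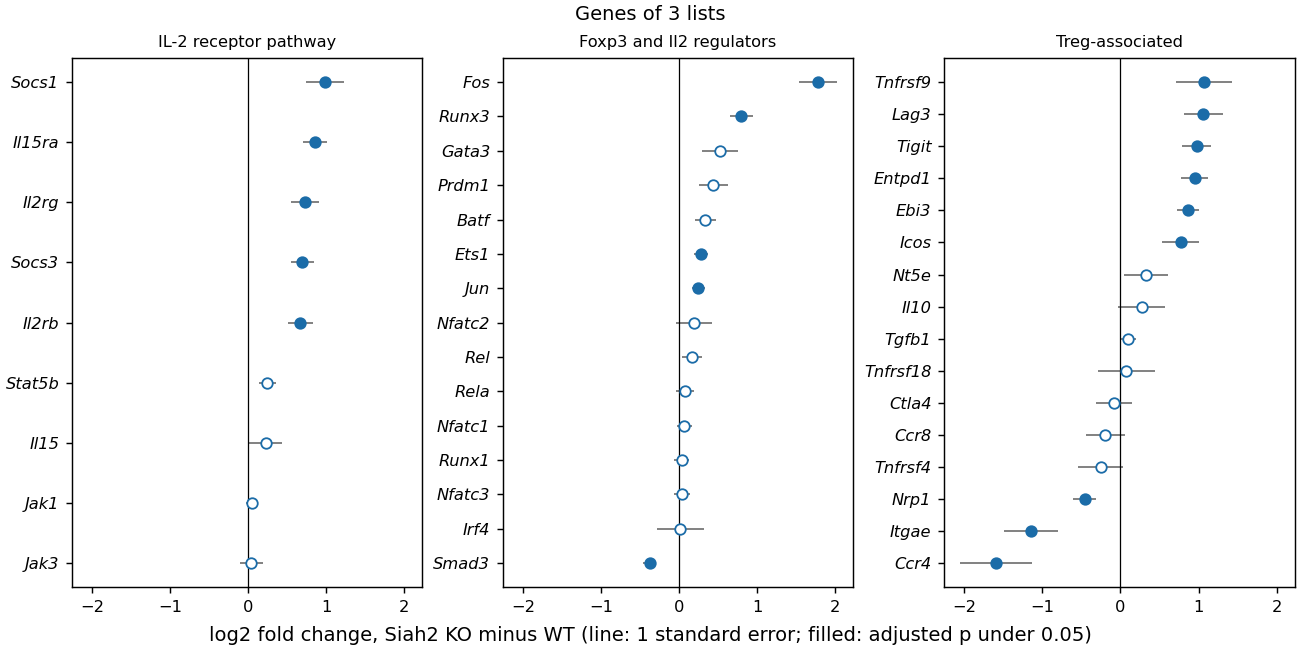
Log2 fold change, Siah2 KO minus WT, with 1 standard error (horizontal lines) for the genes of 3 lists, with filled points for an adjusted p under 0.05. The IL-2 receptor pathway has 5 filled points and all are above 0, the regulators have 4 above and 1 (*Smad3*) below 0, and the Treg-associated genes have 6 above and 3 below 0.

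The tumors of 1 group also differed among themselves, and the genes were set against each other after each group's mean was subtracted. Over the 10 tumors Pearson's r was 0.62 for *Foxp3* with *Ikzf2*, 0.57 for *Foxp3* with *Ikzf1* and 0.55 for *Ikzf1* with *Ikzf2*. It was 0.12 for *Foxp3* with *Il2ra*, 0.30 for *Ikzf2* with *Il2ra* and 0.090 for *Ikzf1* with *Il2ra*. These are descriptions without a test, and the points of a tumor share its scaling factor.

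Among 581 endogenous probes averaging 20 normalized counts or more, the 3 most like *Foxp3* by the same measure were *Col1a1* (r = 0.78), a collagen gene of fibroblasts, *Ctla4* (r = 0.76) and *Tnfrsf4* (r = 0.70). The 3 most like *Ikzf2* were *Irf4* (r = 0.90), *Itgae* (r = 0.86) and *Cd7* (r = 0.83). For *Ikzf1* they were *Ikbke* (r = 0.92), *Muc1* (r = 0.90) and *Pik3cd* (r = 0.90), where Spearman's rho was lower for *Ikbke* (0.62) and WT5 and KO5 were the highest tumors of their groups for *Ikzf1*. For *Il2ra* they were *Fas* (r = 0.85), *Gbp5* (r = 0.83) and *Jak2* (r = 0.82). Of the 3 nearest to *Foxp3*, *Col1a1* was called lower (−0.41, adjusted p = 0.025), and *Ctla4* at −0.082 and *Tnfrsf4*, which encodes the costimulatory receptor OX40, at −0.26 were not called.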

How the data were processed

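RNA of 10 tumors (100 ng each) was measured, and the authors deposited a signal for every probe, namely counts that nSolver v2.0 scaled by 20 reference genes (their geometric mean) after quality control, per the methods. The values themselves also show a constant subtracted as background and a floor of 1. In each tumor 100% of the values from the floor to 150 lay within 0.1 of a whole step of 1 factor. Control probes carry no such factor. Because counts after background subtraction are not raw counts, no count model and no counting interval was used.

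Groups came from the sample labels. The log2(value + 1) of 770 probes was compared by limma (version 3.58.1, functions lmFit and eBayes, under R 4.3.3), two-sided, with Benjamini-Hochberg adjustment. Means were also compared by exact permutation, two-sided. Genes were named by rule: the set, *Il2rb* and *Il2rg*, the genes of 3 lists at an adjusted p under 0.05 with up to 3 others of each, markers beside a result, and the 3 probes most correlated with each gene. The NFAT genes stand outside this rule and were added with their values known. The set, the lists and the comparisons were chosen with earlier results of these data known. Alternatives were 4 other scalings or normalizations, a mean of at least 20, a floor of 20, a pseudocount of 10 or none, endogenous probes only, the methods' t-test with equal variances over 10 tumors and one with unequal variances, an intensity trend, the replicate number as a block, and leaving out each tumor. Promoter sequences are from RefSeq (GRCm38.p6). Figures were drawn in matplotlib 3.10.9 under Python 3.11.15. The study's other experiments were not analysed here.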

Additional observations from a re-analysis of the deposited data

Results flagged for a closer look

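Among the 14 sets of 5 values (7 genes in 2 groups), 4 had 1 tumor set apart from the other 4 by more than Dixon's test at 95% allows, and chance sets apart about 1 in 20. *Foxp3* in KO5 was 46.87 normalized counts, above the other Siah2-/- tumors, with a gap of 0.768 of the range of the group. *Ikzf1* in WT5 was 148.84 and in KO5 206.45 normalized counts, with gaps of 0.881 and 0.777 of the range. *Il2rg* in WT5 was 243.87 normalized counts, with a gap of 0.803. KO5 and WT5 also had the highest sums of T cell genes (1608 and 847) and of leukocyte genes (10144 and 5511) in their groups, and the part of these sums in the 4 values was not tested.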

How the results depend on the processing

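*Foxp3* kept its direction in every alternative, with log2 fold changes of −1.18 to −0.75, and its call in all but those on the 8 tumors with shared numbers, where it was −0.80 with the replicate block (adjusted p = 0.065) and without it (adjusted p = 0.088). Leaving out each tumor gave −1.12 to −0.82. Same-numbered tumors deviated together with r of 0.035, 0.050, 0.17 and 0.35, each more than with any other of the numbers shared by both groups. This is a hint from the data that numbers pair tumors, and WT4 and KO1 were not part of it. The labels do not say so and 2 of the 4 values are under 0.1, so the values reported first are those without a block. With the replicate block *Ikzf1* was 0.40 and *Il2ra* 0.73, both called, and 190 probes were called higher and 45 lower. Of the 5 genes 2 were called, in place of 1, after median scaling, quantile normalization or with the block, and 1 to 2 with each tumor left out. *Ikzf2* was called after median scaling (−0.52) and quantile normalization (−0.58), with −0.33 to −0.19 when a tumor was left out. *Il2* was −0.028 after median scaling and −0.081 to 0.55 with a tumor left out, and *Il2ra* 0.40 to 0.70. Without the block the 8 tumors gave 0.73 for *Il2ra*. Relative to T cell genes they gave −0.80 for *Ikzf2*, no longer called, and 0.096 for *Il2ra* with and without the block. Relative to leukocyte genes they gave 0.068 for *Il2ra*, which ran from −0.31 to 0.064 with a tumor left out. *Il2* was called relative to T cell genes with a floor of 20 (−0.74) or a pseudocount of 10 (−0.57), and relative to leukocyte genes with −0.72 and −0.62. The floor set every *Il2* value to 20, so −0.74 and −0.72 are the shift of the list alone. *Ikzf1* was called relative to leukocyte genes with a mean of at least 20 (−0.36), a floor of 20 (−0.36), a pseudocount of 10 (−0.37) or the mean of the list (−0.33), and ran from −0.45 to −0.29 with a tumor left out. *Ikzf2* minus *Cd4* ran from −0.071 to 0.15. *Ets1* after quantile normalization was −0.089, and *Jun* −0.18, or −0.022 after median scaling. The split of called probes was 163 higher and 152 lower after median scaling, and 153 and 181 after quantile normalization, where the median log2 fold change was −0.040. It was 0.082 after scaling to the positive controls. Causes were not tested. *Il2* has no value under the filter on a mean of 20, and with 5 tumors a group and counts of *Il2* near the negative controls, small differences are beyond these data.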

Other observations

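Fibroblast genes moved opposite to the leukocyte genes in the tumors where *Foxp3* was lower. All 4 (*Col1a1*, *Col3a1*, *Pdgfrb* and *Fap*) were called lower in Siah2-/- tumors, with a median log2 fold change of −0.87, and their summed normalized counts ran from 10332 to 12326 in Siah2-/- tumors and from 16494 to 21344 in WT tumors. The shares of all probes were 31.3% called higher and 9.74% called lower. Of 6 endothelial genes 1 was called higher and 2 lower. Of 4 neutrophil genes 2 were called higher and 0 lower, of 6 dendritic cell genes 1 was called higher and 0 lower, of 6 B cell genes 1 higher and 0 lower, and of 6 macrophage genes 2 higher and 1 lower. The dendritic cell, B cell and macrophage counts were near or under the shares of all probes, and are not read as a result about these cells. The part of all these genes in the values of *Foxp3* was not tested.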
